A study of Rattus norvegicus with 10 samples.

Results

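Cathepsins and other soluble proteins of the lysosome were described here across axonal RNA from adult and embryonic rat sensory neurons. The group comprised 10 genes, Ctsl, Ctsb, Ctsd, Ctsh, Ctss, Ctsz, Ctsa, Psap, Npc2 and Tpp1. They were read through all probe sets whose single annotated gene symbol is one of these names, which gave 11 of the 31042 probe sets that are not controls, or 10 of 14217 genes. Ctsl had 2 probe sets and each of the other genes had 1, and no probe set with several symbols held a member. A probe set is a group of short probes for one transcript on the Affymetrix rat genome array, and its level is given here as a log2 value made by RMA (robust multi-array average). The samples were 5 arrays from adult rats and 5 from rat embryos at embryonic day 16 (E16). In both stages explants of dorsal root ganglia, which hold the cell bodies of sensory neurons, were grown for 4 days in divided chambers. Axons that had grown more than 1 cm into the outer compartment were then cut off for RNA extraction. The labels call the 5 samples of a stage biological replicates, and they do not state strain, sex, adult age or whether ganglia of several animals were pooled.

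Lysosomes are acidic organelles in which hydrolases break down proteins, lipids and sugars delivered by endocytosis, phagocytosis and autophagy. Their soluble enzymes are made as proenzymes in the endoplasmic reticulum and sorted to the organelle largely through mannose 6-phosphate receptors. In neurons, mature lysosomes lie mostly in the cell body, and cargo from the axon is carried back to them by retrograde transport. Macrophages and other phagocytes are rich in cathepsins, and inherited loss of several of these proteins, Tpp1, Ctsd, Npc2, Psap and Ctsa among them, causes storage disease with damage to neurons.

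All 10 genes had a higher mean level in adult than in E16 samples, by 1.06 to 3.72 on the log2 scale, but only the cysteine protease Ctsl passed the test. Both of its probe sets rose, by 3.72 ± 0.60 and 3.79 ± 0.65 on the log2 scale (SE, n = 5 arrays a stage; limma adjusted p = 0.018 and 0.024), which is 13.2-fold and 13.8-fold. Of the 11 probe sets, 2 were higher and 0 lower, against 0.374% higher and 0.457% lower among all probe sets. At an unadjusted p under 0.05, 9 of the 11 were higher and 0 lower, where 4.45% of all probe sets were higher and 5.39% lower. The stages did not overlap for 4 of the 11, both of Ctsl and those of Ctsb and Npc2, all higher in adult samples, as for 1.16% of all probe sets. Differences above 0 were found for 11 of 11, and for 50.2% of all. The median difference was 2.06 over the 11 probe sets and 0.00 over all probe sets, on the log2 scale. With 1 probe set a gene, 1 of 10 genes was called higher, against 0.612% of genes, and 3 of 10 were higher without overlap, against 1.67% of genes (0 lower, against 1.86%). All 10 had a difference above 0, as did 49.9% of genes.

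**Figure D1:**
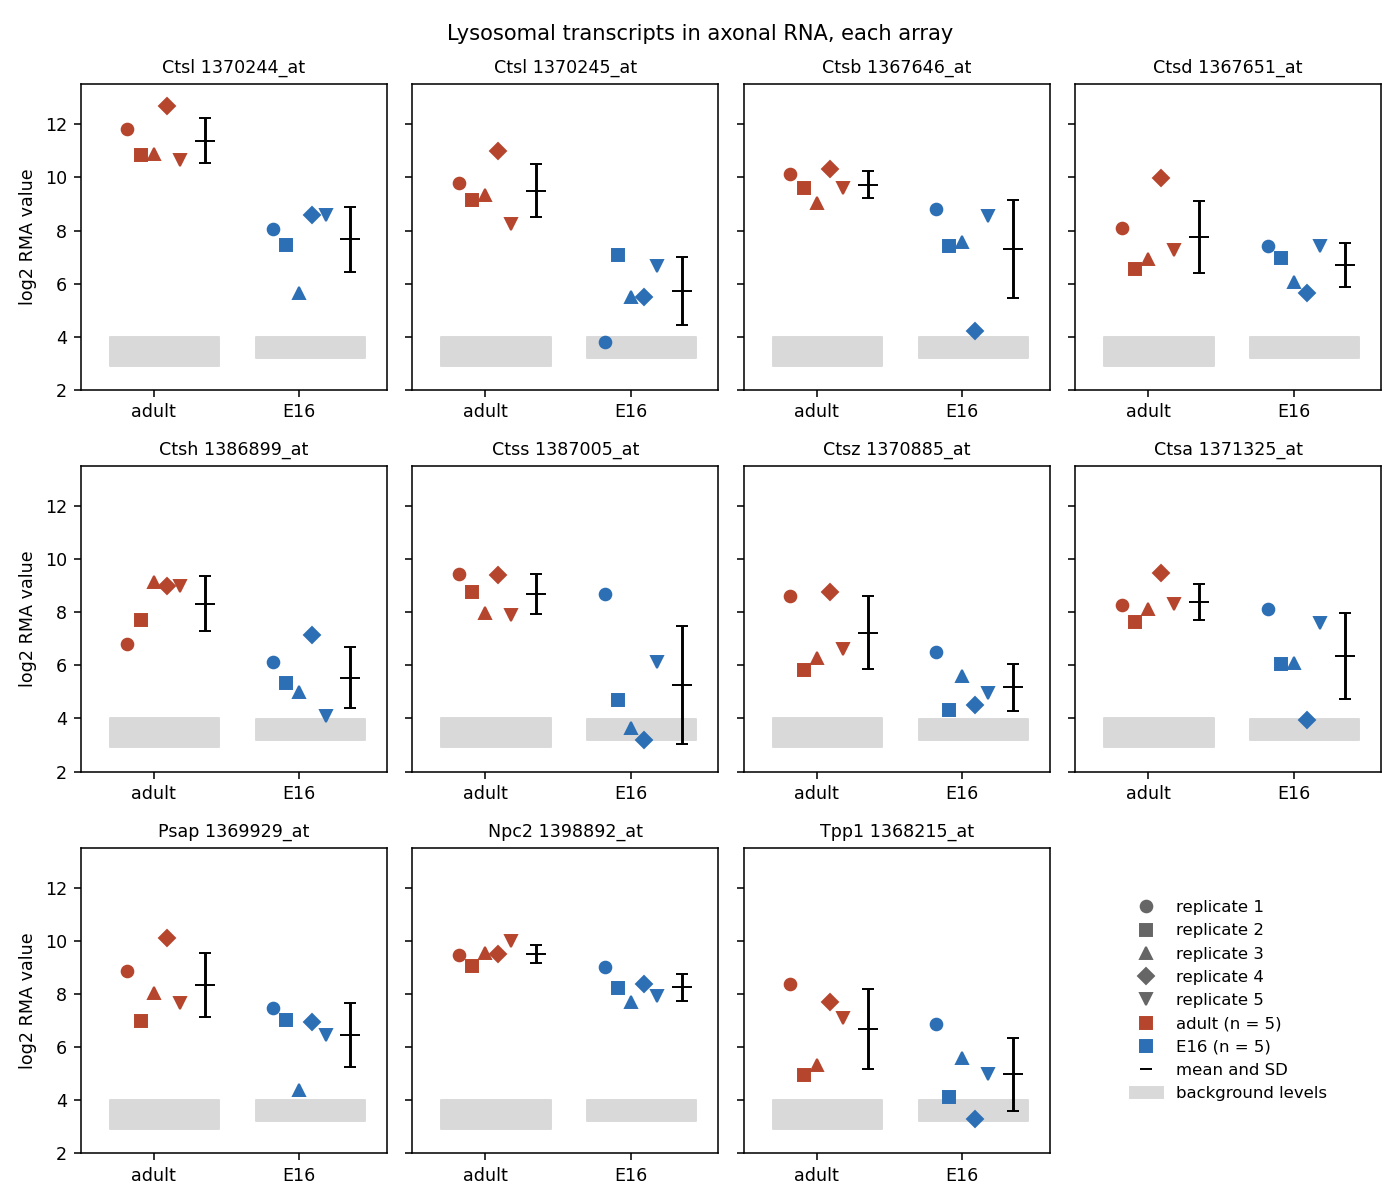
Log2 RMA values of the 11 probe sets on each of the 5 adult (red, left) and 5 E16 (blue, right) arrays. Marker shapes give the replicate number, black marks the mean and SD, and grey bands span the background levels of that stage's arrays. The adult values of Ctsl lie from 10.67 to 12.68 on its brighter probe set, all above the E16 values.

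Background on the scale of these arrays was taken from 94 probe sets for 81 genes typical of organs such as liver, pancreas, kidney, testis and retina, whose 95th percentile lay between 2.91 and 4.00 on single arrays. All 11 member probe sets exceeded it on all 5 adult arrays, as did 14.7% of all probe sets. On all 5 E16 arrays 9 did, against 18.4% of all. Counted by gene, this was 10 of 10 on adult arrays (23.7% of all genes) and 8 of 10 on E16 arrays (29.6%). The exceptions were Ctss, above background on 3 of 5 E16 arrays, and Tpp1, on 4 of 5. Transcripts of lysosomal proteins were thus measurable in the axonal RNA of both stages.

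Some facts of the arrays stand beside every result below. The spread of values on an array, as its standard deviation, ranged from 1.49 to 2.07, and was wide on adult replicates 4 and 5 and E16 replicates 1 and 5 and narrow on the other 6 arrays. Spiked poly-A controls of the labelling step were at 7.75 to 12.00 on adult arrays and 2.00 to 2.65 on E16 arrays, so that stage and the handling of the RNA at labelling cannot be told apart. Differences between the 3' and 5' probe sets of actin were 3.03 to 6.04 on adult and 4.34 to 5.52 on E16 arrays on the log2 scale, and whether RNA integrity has a part in the results was not tested. Since each sample is a mixture, fewer cells of a type and less RNA per cell cannot be told apart.

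The sequence before the start of 3 of the genes is shown because these are the called gene and the members with the largest and the smallest difference that missed the threshold. On RefSeq's assembly GRCr8 the genes lie at chr17:770104-776266 (Ctsl), chr15:41565607-41586479 (Ctsb), chr1:206956945-206968821 (Ctsd), chr8:99488756-99507639 (Ctsh), chr2:185775316-185803440 (Ctss), chr3:183643077-183653847 (Ctsz), chr3:173988443-173994320 (Ctsa), chr20:28756951-28783422 (Psap), chr6:110128325-110149245 (Npc2) and chr1:169509816-169515939 (Tpp1). Each sequence is the 250 bases before the start site in RefSeq's promoter table on that assembly, which for Ctss lies inside the annotated gene, and 8 of 10 members had an entry, all but Ctsb and Psap. The window of Ctsl lies at chr17:769854-770103, plus strand, that of Ctss at chr2:185775146-185775395, plus strand and that of Ctsd at chr1:206968822-206969071, minus strand, each written in the direction of transcription. Capitals mark matches on either strand to the E-box core CACGTG (a palindrome, the centre of the element bound by the lysosomal regulator TFEB), to GAGGAAGT (a form of the site of the macrophage factor PU.1) or to the interferon-response type, a pair of GAAA with any 2 bases between them. These motifs were chosen after the sequences had been seen.
Ctsl: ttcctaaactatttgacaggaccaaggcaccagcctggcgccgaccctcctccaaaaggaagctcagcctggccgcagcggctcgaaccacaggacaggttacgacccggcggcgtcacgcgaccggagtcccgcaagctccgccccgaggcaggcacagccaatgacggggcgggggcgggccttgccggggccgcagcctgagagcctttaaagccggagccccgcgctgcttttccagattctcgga
Ctss: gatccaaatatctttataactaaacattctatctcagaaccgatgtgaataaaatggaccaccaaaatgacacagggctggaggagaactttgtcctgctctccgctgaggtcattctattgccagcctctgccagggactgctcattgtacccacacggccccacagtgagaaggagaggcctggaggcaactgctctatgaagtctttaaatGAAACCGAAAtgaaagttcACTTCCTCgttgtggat
Ctsd: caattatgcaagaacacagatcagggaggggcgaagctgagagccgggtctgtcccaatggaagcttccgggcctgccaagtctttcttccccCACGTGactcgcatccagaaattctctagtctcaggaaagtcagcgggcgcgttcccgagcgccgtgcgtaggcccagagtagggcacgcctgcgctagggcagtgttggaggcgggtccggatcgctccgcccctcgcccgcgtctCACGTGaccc
Ctsd held CACGTG at 2 places, whose last bases lie 152 and 5 bases before the start, and it was the only one of the 8 members with this hexamer, which 5.79% of 27457 rat promoters of the same length hold. Ctss held the interferon-response type on the gene strand, ending 27 bases before the start, and GAGGAAGT on the other strand, ending 10 bases before it. Each of these was found in 1 of the 8 members, and in 3.29% and 2.04% of all promoters. None of the letters searched stood in the 250 bases before Ctsl, of which 66.8% were G or C, against a median of 52.0% over all promoters.

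The cysteine cathepsins had the largest differences. Ctsl, cathepsin L, is an endopeptidase of lysosomes that also acts outside them. On its brighter probe set, 1370244_at, it was at 11.83, 10.85, 10.90, 12.68 and 10.67 in adult replicates 1 to 5, and at 8.06, 7.46, 5.66, 8.58 and 8.57 in E16 replicates 1 to 5. The lowest adult array lay 2.09 above the highest E16 array on the log2 scale, and E16 replicate 3 was the low one of its stage. Its other probe set, 1370245_at, read 9.78, 9.15, 9.35, 10.98 and 8.25 in adult samples and 3.80, 7.09, 5.48, 5.51 and 6.68 in E16 samples. Again the stages did not overlap, with a gap of 1.16. The probe sets disagreed about E16 replicate 1, which was in the middle of its stage on one and lowest on the other. The 95% intervals of the difference ran from 2.40 to 5.04 and from 2.35 to 5.23 on the log2 scale. The call of 1370244_at was lost without adult replicate 1 (adjusted p = 0.056) or E16 replicate 2 (0.051), and that of 1370245_at without adult replicate 1 (0.073), 3 (0.060) or 4 (0.059) or E16 replicate 3 (0.069), while the differences stayed between 3.22 and 4.14 over these and all other omissions of 1 array. Within the arrays of wide spread the differences were 3.36 and 4.38 (adjusted p = 0.22 and 0.34; 2 arrays a stage), and within those of narrow spread 3.96 and 3.40 (0.10 and 0.054; 3 arrays a stage).

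**Figure D2:**
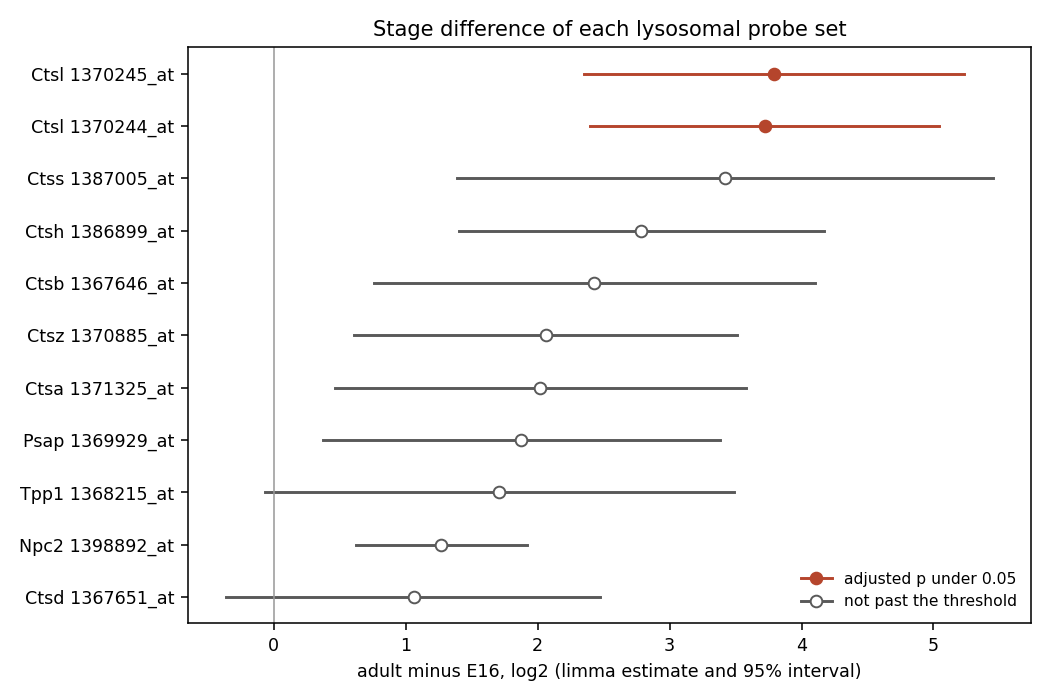
Adult minus E16 difference of each probe set on the log2 scale, with limma's 95% interval, ordered by size. Filled red points passed an adjusted p of 0.05, which were the probe sets of Ctsl alone. The intervals of Ctsd and Tpp1 include 0.

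Ctss, cathepsin S, is active at neutral pH and cleaves the invariant chain in antigen-presenting cells. It was at 9.44, 8.75, 7.97, 9.39 and 7.89 in adult samples and at 8.67, 4.68, 3.65, 3.18 and 6.14 in E16 samples. E16 replicate 1 lay among the adult arrays, and the other 4 E16 arrays lay below all of them. The difference of 3.42 ± 0.92 on the log2 scale (SE, n = 5; 10.7-fold, 95% interval 2.62-fold to 43.9-fold) did not pass the test (adjusted p = 0.15). Over the omissions of 1 array the adjusted p reached 0.30, and only 1 omission brought a call. Without E16 replicate 1 the difference was 4.27 with an adjusted p of 0.013. Within the arrays of narrow spread, which leave that array out, it was 4.88 (adjusted p = 0.023), and within those of wide spread, which hold it, 1.23 (0.68). The difference between these values was not tested.

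Ctsh, cathepsin H, works mainly as an aminopeptidase. Its level was 6.81, 7.69, 9.15, 8.97 and 9.0 in adult samples, against 6.12, 5.34, 5.00, 7.16 and 4.09 in E16 samples. Adult replicate 1 and E16 replicate 4 crossed, and the other 8 arrays were separated by stage. A difference of 2.78 ± 0.63 on the log2 scale (SE, n = 5) missed the threshold (adjusted p = 0.078), and reached it without E16 replicate 4 (3.19, adjusted p = 0.035) and when weak probe sets were left out of the adjustment (0.042). No other omission of 1 array brought a call of Ctsh, with an adjusted p of up to 0.18. Ctsb, cathepsin B, an endopeptidase that also trims dipeptides, read 10.13, 9.59, 9.02, 10.32 and 9.59 in adult samples and 8.81, 7.40, 7.56, 4.20 and 8.54 in E16 samples. The stages were apart by 0.22 at the closest arrays, and E16 replicate 4 stood 3.20 below the next. Its difference was 2.43 ± 0.76 (adjusted p = 0.23). For Ctsz, cathepsin X, a carboxypeptidase, adult samples had 8.63, 5.83, 6.29, 8.78 and 6.63 and E16 samples 6.51, 4.32, 5.58, 4.49 and 4.97. Adult replicates 1 and 4 stood above the other 3, and E16 replicate 1 was above the 2 lowest adult arrays. The difference of Ctsz was 2.06 ± 0.66 (adjusted p = 0.25).

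The other proteases use an aspartate or a serine at the active site. Ctsd, cathepsin D, the main aspartic protease of lysosomes, was at 8.10, 6.54, 6.92, 9.98 and 7.26 in adult and at 7.43, 6.98, 6.05, 5.64 and 7.42 in E16 samples. Adult replicate 4 was high, and 3 of the other 4 adult values lay within the E16 range. With a difference of 1.06 ± 0.64 on the log2 scale (95% interval -0.36 to 2.47; adjusted p = 0.69), a change in either direction was not shown, and without adult replicate 4 the difference was 0.50. Ctsa, a serine carboxypeptidase that also protects lysosomal galactosidase and neuraminidase, had values of 8.27, 7.65, 8.13, 9.49 and 8.32 in adult samples. In E16 samples Ctsa was at 8.13, 6.05, 6.07, 3.94 and 7.58, with replicate 1 at the level of the adult arrays and replicate 4 near background. Its difference was 2.02 ± 0.71 (adjusted p = 0.31). Tpp1, a serine peptidase that removes tripeptides, was at 8.37, 4.94, 5.31, 7.68 and 7.10 in adult and at 6.87, 4.13, 5.57, 3.28 and 5.00 in E16 samples. This was the widest overlap of the group, with an interval from -0.07 to 3.49 around a difference of 1.71 (adjusted p = 0.53).

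Psap and Npc2 are not enzymes. Psap, the precursor of the saposins that help hydrolases reach lipids and also a secreted factor, was at 8.87, 6.99, 8.02, 10.10 and 7.66 in adult samples and at 7.46, 7.03, 4.39, 6.93 and 6.46 in E16 samples. Adult replicate 2 lay just below the 2 highest E16 arrays, and the difference was 1.87 ± 0.68 (log2, SE, n = 5; adjusted p = 0.34). Npc2, which binds cholesterol and hands it to Npc1 in the lysosomal membrane, had the smallest spread of the 10 genes in both stages. It read 9.48, 9.04, 9.55, 9.52 and 9.98 in adult and 9.03, 8.22, 7.70, 8.36 and 7.93 in E16 samples, so that the stages parted by 0.02. The difference of 1.27 ± 0.30 (2.41-fold, 95% interval 1.53-fold to 3.78-fold) had an adjusted p of 0.090, or 0.047 without E16 replicate 1. No other omission of 1 array brought a call of Npc2, with an adjusted p of up to 0.22.

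Arrays of a stage differed in the same way for many members. Adult replicate 4 was the highest adult array for 7 of 11 probe sets and the lowest for 0, and adult replicate 2 the lowest for 6 and the highest for 0. In embryonic samples replicate 1 was highest for 8 of 11, all but those of Ctsl and Ctsh, and replicate 4 was lowest for 5. The same ranks were not counted over all probe sets. Adult replicate 4 had the widest spread of all arrays (SD 2.07) and adult replicate 2 the narrowest (1.49), and E16 replicate 1 was wide (1.95). Whether the spread of the arrays has a part in these ranks was not tested. The mean over the 10 genes was 8.99, 7.79, 8.13, 9.69 and 8.41 on the adult arrays and 7.71, 6.16, 5.72, 5.58 and 6.67 on the E16 arrays. E16 replicate 1 was thus nearly as high as the lowest adult array. After the stage means had been taken off, the correlation between 2 member genes over the 10 arrays had a median of 0.46 over 45 pairs and was above 0 in 38. It reached 0.93 for Ctsb with Ctsa and 0.90 for Ctsz with Tpp1, and was -0.58 for Ctsb with Ctsh. Both Ctsb (4.20) and Ctsa (3.94) were lowest of their stage on E16 replicate 4, near its background of 3.93. Correlations between pairs of other genes were not computed. The points of these correlations share array, labelling and scaling, and genes of 1 array are not independent.

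**Figure D3:**
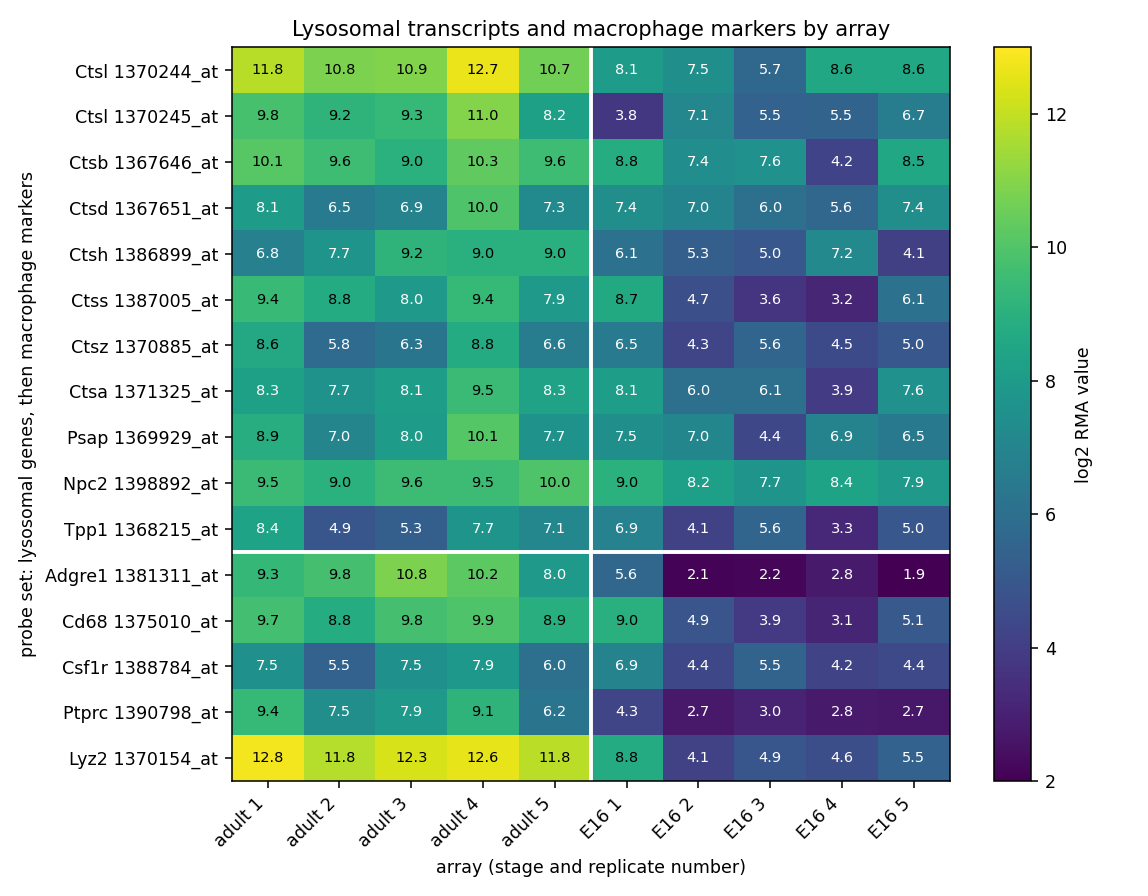
Log2 RMA values of the 11 lysosomal probe sets (above the white line) and of 5 macrophage markers (below it) on each array, adult arrays left of E16 arrays. On E16 replicate 1 Ctss read 8.67 and Lyz2 8.75, and on the other E16 arrays Ctss read 3.18 to 6.14 and Lyz2 4.11 to 5.48.

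Of 20 macrophage markers 19 had a higher mean in adult samples, all but Cx3cr1, against 49.9% of all genes. E16 replicate 1 was the highest E16 array for every marker but C1qb, Cx3cr1 and Itgam. Of 20 markers 11 were called higher and 0 lower in adult samples, against 0.612% and 0.647% of all genes, with a median difference of 3.79 on the log2 scale against 0.00 over all genes. Lyz2, the lysozyme of phagocytes, was at 12.79, 11.76, 12.34, 12.59 and 11.85 in adult and at 8.75, 4.11, 4.93, 4.64 and 5.48 in E16 samples. Adgre1, the F4/80 antigen, read 9.31, 9.75, 10.85, 10.22 and 7.96 in adult samples and 5.61, 2.12, 2.19, 2.78 and 1.94 in E16 samples. For both, the stages did not overlap and E16 replicate 1 was the highest of its stage. Cd68, a membrane protein of macrophage lysosomes, had 9.73, 8.81, 9.76, 9.95 and 8.90 in adult samples and 8.98, 4.88, 3.89, 3.13 and 5.08 in E16 samples. Cd68 did not pass the test (adjusted p = 0.066), and without E16 replicate 1 it did (0.0015). No other omission of 1 array brought a call of Cd68, with an adjusted p of up to 0.16. Cd68 was also called under cyclic loess scaling, with weak probe sets left out, with array spread as a term and within the narrow arrays. Ptprc, the leucocyte antigen CD45, was at 6.22 to 9.39 in adult samples and 2.70 to 4.31 in E16 samples. The growth factor receptor Csf1r was at 5.48 to 7.87 in adult and 4.24 to 6.92 in E16 samples. Csf1r did not pass the test by limma (adjusted p = 0.31), nor did it under any alternative (from 0.13 to 0.68).

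The summed level of the 20 markers, as the log2 of their summed linear values, was 12.76 to 14.02 on adult arrays, 11.26 on E16 replicate 1 and 8.15 to 8.32 on the other 4 E16 arrays. Markers above background numbered 15 to 19 of 20 on adult arrays, 17 on E16 replicate 1 and 5 to 11 on the other E16 arrays. Cd163 and Itgam were above background on 0 of 5 E16 arrays, and Cx3cr1 on 0 of 5 adult arrays. Adgre1 and Ptprc were above background on 1 of 5 E16 arrays, replicate 1 for both. The part of macrophage RNA in the lysosomal differences was not tested. Leaving out E16 replicate 1 gave 13 called markers, leaving out adult replicate 5 gave 11, and leaving out any other single array gave 6 or 7. Within the wide arrays 0 were called by limma.

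Markers of the other cells that an explant can hold were read in the same way. Neuron and axon markers above background numbered 9 to 12 of 13 on adult and 11 to 13 on E16 arrays, so neuronal transcripts were present throughout. Of the 13, though, 4 were called lower in adult samples and 0 higher, against 0.647% and 0.612% of all genes. The 4 were the cytoskeletal genes Prph, with a difference of -4.32 on the log2 scale, Nefl with -3.72, Nefm with -3.42 and Tubb3 with -3.18. Tubb3 was read by a probe set whose suffix marks shared probes, and it was not called when such probe sets were left out. Its other probe set was above background on 0 arrays of either stage, at 2.36 in adult and 2.39 in E16 samples. Leaving out 1 array gave 1 to 4 of the neuron and axon calls, with 1 without adult replicate 4 or E16 replicate 5 and 2 without E16 replicate 2 or 3. With the replicate number as a block 2 were called, within the wide arrays 0 and within the narrow arrays 1. The summed level of the neuron and axon markers was 10.54 to 12.84 on adult arrays and 12.20 to 14.37 on E16 arrays. For 9 Schwann and satellite cell markers it was 9.98 to 12.27 on adult and 8.22 to 9.71 on E16 arrays, with 0 called by limma and 3 higher at an unadjusted p under 0.05, against 6.28% of genes. For 10 fibroblast markers it was 7.25 to 12.03 on adult and 7.97 to 10.03 on E16 arrays, with 0 called by limma. Of these 10, 2 higher and 1 lower reached an unadjusted p under 0.05, as did 6.28% and 7.01% of genes. Whether these cells have a part in the results was not tested. Of the Schwann and satellite cell markers, 1 was called higher without adult replicate 1 (Mbp), without adult replicate 2 (Glul) and when weak probe sets were left out (Pmp22). Of the 9, 6 had a difference above 0, against 49.9% of all genes, and their median difference was 0.29 on the log2 scale. Sox10, Ngfr and Fabp7 had lower means in adult samples.

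Other genes of the lysosome were counted from lists of enzymes, membrane proteins, the proton pump, sorting factors and cathepsin inhibitors, 111 genes in all. Of these 2 were called higher and 0 lower, where 0.612% of all genes were called higher and 0.647% lower. An unadjusted p under 0.05 was reached by 19 higher and 4 lower, where 6.28% of genes were higher and 7.01% lower. Their median difference was 0.29 on the log2 scale. The called genes stood on different lists. Ctsc, cathepsin C, which activates the granule proteases of leucocytes, was at 10.88, 9.09, 9.07, 9.06 and 9.13 in adult samples and at 7.32, 5.94, 2.86, 2.56 and 3.11 in E16 samples. Its stages did not overlap, and its difference of 5.09 ± 0.90 (log2, SE, n = 5; adjusted p = 0.029) was larger than that of every member. It was above background on 2 of 5 E16 arrays, replicates 1 and 2, and its other probe set rose by 4.17 (adjusted p = 0.0053). The first of these calls was lost without adult replicate 1 (adjusted p = 0.082), 2 (0.055), 3 (0.063) or 4 (0.065) or E16 replicate 3 (0.077) or 5 (0.081), and the second in no omission of 1 array. Within the wide and within the narrow arrays neither probe set of Ctsc passed (adjusted p = 0.40 and 0.074 for the first, 0.16 and 0.058 for the other). Atp6v0e1, a small subunit of the proton pump that acidifies lysosomes, was at 9.80, 8.25, 9.27, 9.83 and 10.08 in adult and at 7.36, 6.66, 6.94, 6.82 and 6.97 in E16 samples. It rose by 2.50 ± 0.35 (adjusted p = 0.0089), was called in all 10 omissions of 1 array but not within the wide (adjusted p = 0.092) or the narrow arrays (0.11), and is read by a probe set whose suffix marks probes common to alternative transcripts.

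Of 10 other cathepsins, Ctsc was the only one called, where 0.612% of genes were called higher. Ctse, Ctsj, Ctsm, Ctsq, Ctsr and Ctsw were above background on 0 of 10 arrays. The median difference of the 10 was 0.00. Ctsk, the cathepsin of osteoclasts, was above background on 1 array of each stage. Among 35 other soluble hydrolases and activators 0 were called by limma, with a median difference of 0.50. At an unadjusted p under 0.05, 9 were higher, against 6.28% of genes, and 0 lower, against 7.01%. The brightest were Grn, the precursor of granulins, at 9.57 ± 0.60 in adult and 8.28 ± 1.08 in E16 samples (SD, n = 5; adjusted p = 0.39), Ids, an iduronate sulfatase, at 8.33 ± 0.46 in adult and 8.99 ± 0.96 in E16 samples (0.75), and Hexa, a hexosaminidase subunit, at 7.99 ± 1.23 in adult and 7.70 ± 0.94 in E16 samples (0.96).

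Of 18 lysosomal membrane proteins 0 passed the test by limma, with a median difference of 0.70. At an unadjusted p under 0.05, 2 were higher, against 6.28% of genes, and 0 lower, against 7.01%. Lamp2, which takes part in autophagy, was at 9.26 ± 0.40 in adult and 7.52 ± 1.42 in E16 samples (SD, n = 5; adjusted p = 0.30), and its stages parted by 0.02. On its other probe set the stages overlapped, at 3.61 to 8.01 in adult and 2.43 to 6.96 in E16 samples (adjusted p = 0.73). The tetraspanin Cd63 was at 9.91 ± 1.39 in adult and 8.73 ± 1.05 in E16 samples (adjusted p = 0.68), and Lamp1 at 8.38 ± 1.44 in adult and 7.86 ± 1.49 in E16 samples (0.94). The proton pump had 1 of 18 subunits called, Atp6v0e1, against 0.612% of genes called higher, and a median difference of -0.06. Sorting factors had 0 of 23 called by limma and a median of -0.05. Of these, 2 higher and 2 lower reached an unadjusted p under 0.05, as did 6.28% and 7.01% of genes. The brightest sorting factors were Ap3d1, a subunit of the adaptor AP-3, at 8.6 ± 0.92 in adult and 9.78 ± 0.48 in E16 samples (adjusted p = 0.36), the retromer subunit Vps29 at 8.88 ± 0.65 in adult and 8.08 ± 1.32 in E16 samples (0.78), and Rab7a, a GTPase of late endosomes, at 7.69 ± 0.96 in adult and 8.34 ± 1.00 in E16 samples (0.83). Of the list of 7 cathepsin inhibitors, which also holds inhibitors of other proteases, 0 were called by limma, and the median was 1.35. At an unadjusted p under 0.05, 3 were higher, against 6.28% of genes, and 1 lower, against 7.01%. Serpinb9, an inhibitor of granzyme B, was at 7.73 ± 1.43 in adult and 5.71 ± 1.49 in E16 samples (adjusted p = 0.42), while its other probe set was at 4.91 in both stages. The secreted cystatin Cst3 was at 7.29 ± 1.45 in adult and 5.95 ± 1.11 in E16 samples (adjusted p = 0.62), and the cytosolic cystatin Cstb at 6.89 ± 0.85 in adult and 6.50 ± 0.40 in E16 samples (0.88).

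**Figure D4:**
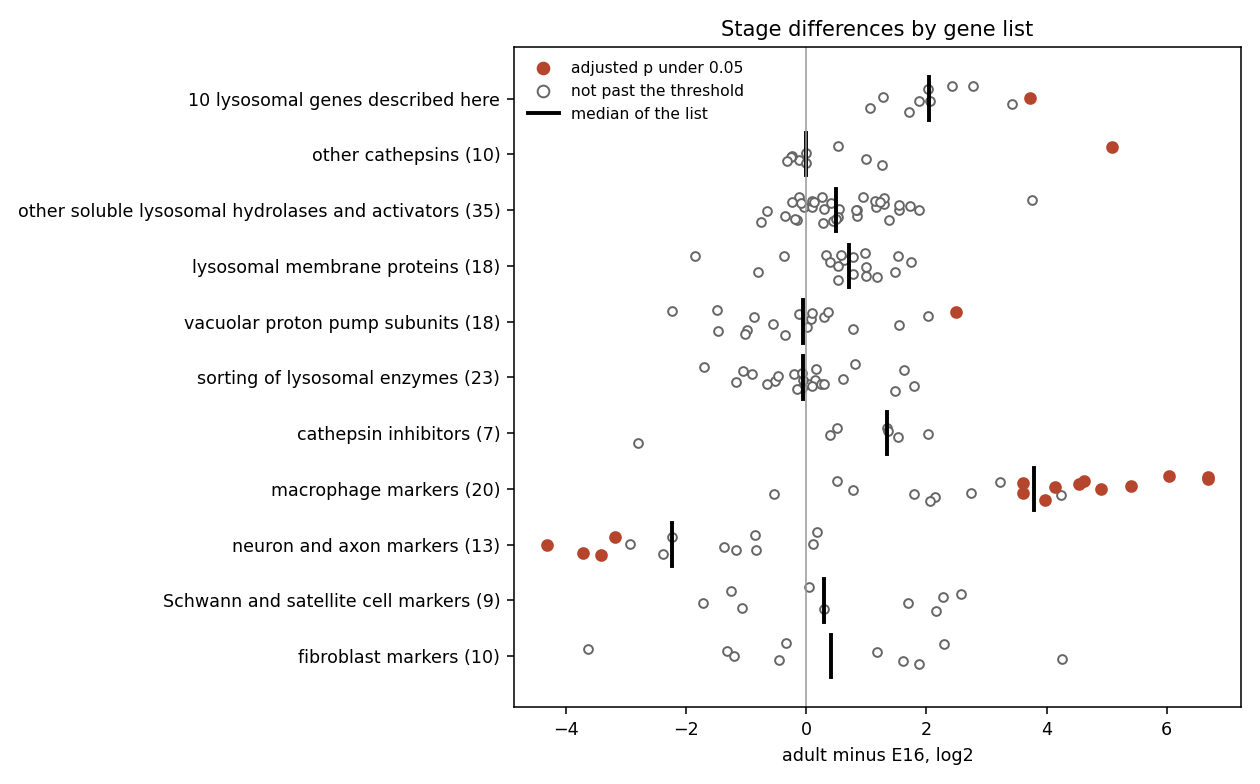
Adult minus E16 difference on the log2 scale of every gene of each list, 1 probe set a gene, with the number of genes in brackets. Filled red points passed an adjusted p of 0.05 and black bars mark list medians, 2.04 for the 10 genes described here, 3.79 for macrophage markers and between -0.06 and 1.35 for the other lysosomal lists.

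Genes with the most similar pattern over the 10 arrays were listed by Pearson correlation, as a description. Closest to the brighter Ctsl probe set were B2m, the light chain of class I antigens (r = 0.950), Uso1, a tether of transport vesicles (0.949), Cmtm6 (0.938), Ncf4, a subunit of the phagocyte oxidase (0.932), and the transporter Slco4a1 (0.919). Closest to the mean of the standardised values of the 10 genes were Laptm5, a lysosomal protein of blood cells (0.961), the macrophage receptor Cd14 (0.961), Gpnmb, a glycoprotein of phagocytes and pigment cells (0.955), Rasa1 (0.954) and Gpr137b, a lysosomal membrane protein (0.950). On this probe set, not its brightest, Laptm5 was at 6.76, 5.05, 7.27, 8.04 and 6.91 in adult replicates 1 to 5, low in replicate 2 and high in replicate 4 as most members were. The correlations contain the difference between the stages, and the arrays share labelling and scaling.

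Differences within the wide and narrow arrays were on the same side of 0 for all 11 probe sets. Those of Psap (1.92 within wide and 1.84 within narrow arrays), Npc2 (1.27 in both) and Ctsz (1.97 and 2.12) were alike in size. Ctsb had 1.28 and 3.20, Ctsa 1.05 and 2.66, and Ctsh 3.88 and 2.05 on the log2 scale. Within the 4 wide arrays limma called 0 of 11 and 0.0% of all probe sets higher, and 3 of 11 were higher at an unadjusted p under 0.05 (Ctsl by its brighter probe set, Ctsb and Ctsh), against 7.99% of all. Within the 6 narrow arrays it called 1 of 11 higher, Ctss, against 0.274% of all, and 8 of 11 were higher at an unadjusted p under 0.05 (both of Ctsl, Ctsb, Ctsh, Ctss, Ctsz, Ctsa and Npc2), against 4.08% of all. None of the 11 was lower at that threshold in either set of arrays.

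**Figure D5:**
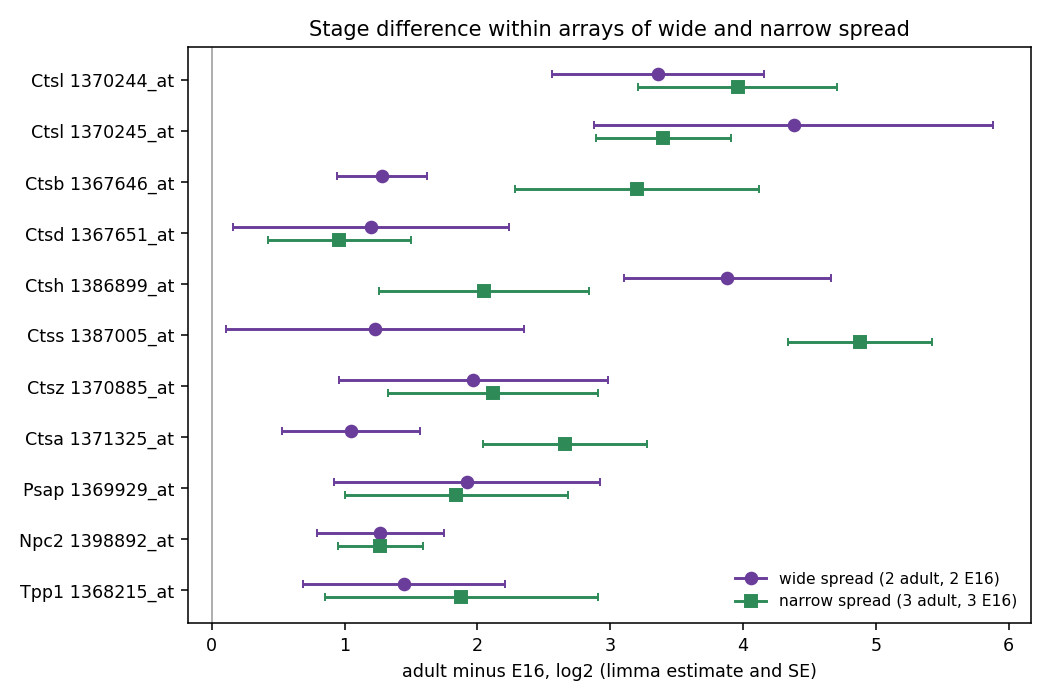
Adult minus E16 difference on the log2 scale with its SE for each probe set, within the 4 arrays of wide spread (circles) and the 6 of narrow spread (squares). All 22 differences are above 0, and those of Ctss, at 1.23 and 4.88, are the farthest apart.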

How the data were processed

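RNA of axons from 5 adult and 5 E16 cultures was measured on 1 array each. The deposited log2 values were made by the authors with RMA, per the submitters' processing notes. Its version and options, and whether 1 run covered the 10 arrays, are not given in the sources here. The log base was taken from the range of the values. The number of arrays limits the precision. RMA compresses differences of weak probe sets.

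Adult minus E16 differences over the 10 arrays came from limma (version 3.58.1, R 4.3.3; lmFit and eBayes, two-sided). The 57 control probe sets were left out, and p-values were adjusted by Benjamini-Hochberg over the remaining 31042, with a threshold of 0.05. No filter was used. A gene is its brightest single-symbol probe set. Of all probe sets 20826 had a single symbol, 436 several and 9780 none. The gene numbers of all 11 member probe sets were found in RefSeq's table, which gave the coordinates. The fit was tested on simulated data. Summaries and plots used pandas 2.3.3 and matplotlib 3.10.9 under Python 3.11.15.

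Named were all members, 5 defining macrophage markers, and the 5 genes most like Ctsl and the 5 most like the members' mean. For the other lysosomal lists and the neuron and axon list, up to 5 called genes were named. Where 0 were called, the 3 brightest were named. Other macrophage markers and those of Schwann cells and fibroblasts are given as counts and summed levels, without values by gene. Members, lists and alternatives were chosen with earlier results of these data known. The alternatives changed scaling, filter, variance model, weights, blocks, arrays, gene summary and background.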

Additional observations from a re-analysis of the deposited data

Results flagged for a closer look

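Over 16 probe sets, the 11 members and 5 macrophage markers, 32 groups of 5 arrays were examined for a single array far from the others by Dixon's ratio, which chance alone exceeds in about 1 of 20 groups. It stood out in 2 groups, both through E16 replicate 1. Adgre1 read 5.61 there, against 1.94 to 2.78 on the other 4 E16 arrays (ratio 0.771 against a critical value of 0.71). Ptprc read 4.31, against 2.70 to 3.04 (ratio 0.790). No member was marked in this way, although E16 replicate 1 was also the highest E16 array for 8 of the 11 member probe sets.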

How the results depend on the processing

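The direction of all 11 probe sets was the same in all 220 combinations of probe set and alternative, and 204 kept their side of the threshold, 11 lost a call and 5 gained one. Of the 11 losses, all were of Ctsl. The number of member probe sets called higher was 2 in the reported fit and under quantile, cyclic loess and median scaling, the other variance model, array weights and the spread of the arrays as a term. It was 3 with a filter on weak probe sets, 1 with the replicate number as a block, 0 within the wide and 1 within the narrow arrays, and 0 to 4 over the 10 omissions of 1 array. Member genes called higher were 1 (Ctsl), or 2 with the filter (Ctsh added), 0 within the wide arrays and 0 to 3 over the omissions. Within the narrow arrays the 1 called was Ctss, and Ctsl was not called. No member probe set was called lower in these fits. Other lysosomal genes called higher were 2 (Ctsc and Atp6v0e1), or 3 with the filter (Lgmn added) and with the spread as a term (Cst3 added). They were 0 within wide arrays, 1 within narrow arrays (Lgmn alone), 1 without probe sets whose suffix marks shared probes (Ctsc), and 1 to 4 over the omissions. Those called lower were 0, or 1 each with the filter, with array weights, within narrow arrays and with the mean of a gene's probe sets, and 0 to 1 over the omissions. The gene called lower was Laptm4b within narrow arrays and Cst6 in the other fits. Macrophage markers called higher were 11, or 0 within wide arrays, 6 to 13 over the omissions, and 9 to 13 under the other alternatives, with 9 under array weights and under the replicate block and 13 of the 17 that passed the filter. Neuron and axon markers called lower were 4, or 2 with the replicate block (Nefl and Nefm lost), 0 within wide arrays, 1 within narrow arrays, 1 to 4 over the omissions, and 3 or 4 under the other alternatives. Fewer arrays were fitted within the wide and narrow sets and fewer probe sets were adjusted over with the filter; the cause of the other changes was not tested.

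Same replicate numbers did not pair the arrays. Deviations from the stage means correlated by -0.122, 0.055, 0.172, -0.111 and 0.276 for replicates 1 to 5, and with the replicate block limma called 91 probe sets higher and 100 lower, against 116 and 142 without it. Ctsl 1370245_at had an adjusted p of 0.094 with the block. Over all probe sets, the median difference moved by less than 0.1 on the log2 scale under every scaling. Member probe sets above background on all E16 arrays were 9, and 9 and 7 at the 90th and 99th percentile. Weak signal limits Ctss and Tpp1 in E16 samples, whose differences there may be compressed.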

Other observations

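Further lysosomal genes, 4 in number, chosen after their values were seen, had large differences that missed the threshold. Lgmn, legumain, an asparagine-specific protease that processes cathepsins, was at 8.87, 8.96, 8.37, 9.38 and 7.55 in adult samples and at 8.06, 3.37, 3.51, 3.18 and 6.25 in E16 samples. As for Ctss, E16 replicate 1 lay among the adult arrays, and replicate 5 lay between these and the other 3. The difference was 3.75 ± 0.90 on the log2 scale (SE, n = 5; limma adjusted p = 0.10), 4.55 without E16 replicate 1 (adjusted p = 0.013), and 1.31 to 5.38 over all alternatives (adjusted p from 0.0033 to 0.62).

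The other 3 had lower means in adult samples. Cst6, cystatin M, an inhibitor of cathepsins L and V in human skin, was at 3.33 ± 0.56 in adult and 6.12 ± 1.27 in E16 samples (SD, n = 5; adjusted p = 0.052, from 0.0024 to 0.38 over the alternatives), and was above background on 3 adult and 5 E16 arrays. Ap1m1, a subunit of the adaptor that sorts lysosomal enzymes at the Golgi, was at 4.43 to 6.34 in adult and 6.78 to 7.76 in E16 samples, without overlap (adjusted p = 0.10, from 0.078 to 0.32). Atp6v0e2, the other small e subunit of the proton pump, was at 6.02 ± 1.75 in adult and 8.25 ± 0.61 in E16 samples (adjusted p = 0.27, from 0.097 to 0.48), opposite in sign to Atp6v0e1.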
